A study of Mus musculus with 2 samples.

Results

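The members described here are the nuclear genes of the mitochondrial respiratory chain and ATP synthase, together with a few genes that share their names. They were chosen by symbol in the authors' deposited table: every gene that begins with Nduf, Uqcr, Atp5 or Cox4 to Cox8, and Sdha, Sdhb, Sdhc and Sdhd. This gave 90 of 24288 gene symbols, and 83 of the 90 encode subunits. The other 7 carry such a name without being a subunit and are kept apart. A gene was tested if at least 1 of its probes was flagged well above background on 4 or more of 8 arrays, which left 87 genes, of which 80 encode subunits. The probe that stood for each of these 87 genes was well above background on all 8 arrays. RNA came from isolated pancreatic islets of C57BL/6J mice at 8 weeks of age, 3 days after 60% of the pancreas had been removed (pancreatectomy) or after a sham operation. No transgene or drug is named for either group. There are 4 arrays per group, described by the submitters as replicates. Nothing says that they came from separate animals, and a p-value here reflects variation among arrays, which could be technical. All 8 arrays lie on 1 slide, with sham arrays in slide columns 1 and 2 and pancreatectomy arrays in columns 3 and 4, so that slide column and operation cannot be told apart. The comparison addresses which islet transcripts differ once the remaining pancreas has to serve the whole animal.

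The respiratory chain passes electrons from NADH (complex I) and succinate (complex II) through ubiquinone, complex III, cytochrome c and complex IV to oxygen, and pumps protons out of the mitochondrial matrix at complexes I, III and IV. ATP synthase, also called complex V, lets the protons back in and makes ATP. In beta cells, the ATP made from glucose closes potassium channels in the plasma membrane, and the calcium entry that follows releases insulin, so that respiration is part of how these cells sense glucose. Most subunits are encoded in the nucleus and imported, while a small core of complexes I, III, IV and V is encoded in mitochondrial DNA.

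Values are log2 of the background-subtracted signal, shifted so that the 75th percentile of each array is equal (normalized log2 signal), and changes are pancreatectomy minus sham ± standard error (SE), with 4 arrays against 4. The unshifted 75th percentile ran from 280 to 655 on 7 arrays and was 178 on sham replicate 3, where 48.1% of probes were well above background, against 59.1% to 71.4% on the other 7. Islet cell markers were well measured: all 12 beta-cell markers, all 6 alpha-cell markers and all 3 delta-cell markers were well above background on all 8 arrays. Markers of other tissues moved with single arrays. The mean deviation of 8 hepatocyte markers from the sham mean was 5.40 on array 4 of the sham group, and 5.48 and 4.47 on arrays 1 and 4 of the pancreatectomy group. On pancreatectomy replicate 3, the same measure was 7.09 for 6 B and plasma cell markers and 4.14 for 6 enterocyte markers.

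Among the 87 genes tested, 0 were higher and 0 were lower after pancreatectomy at an adjusted p of 0.05 in limma (Benjamini-Hochberg over 30864 features), where 0.629% of all features were called, 168 higher and 26 lower. In simulated data with the noise of all features, an adjusted p of 0.05 in limma recovered 0% of log2 changes of 0.5 and 30% of changes of 1. A count of 0 calls alone therefore does not show that changes of this size were absent. The simulated noise was independent between features and was taken from all of them, not from the members. The simulation thus does not give the recovery for members, whose 95% intervals are given below. At an unadjusted p under 0.05 there were 2 of 87 genes, 2.30%, against 10.5% of all features, and the lowest adjusted p of any member was 0.464. Sham and pancreatectomy arrays were fully separated in 1 of 87 genes, 1.15%, against 8.28% of all features. In bulk islet RNA, fewer cells of a type and less RNA per cell cannot be told apart, which applies to all values here. Changes ranged from -0.82 for Cox6a2 to 0.51 for Atp5o, 31 were above 0 and 56 below, and the median was -0.054 against -0.037 over all features. The intervals were narrow as well. For 85 of the 87 genes, 97.7%, the 95% interval of the change lay within a 2-fold change in either direction, which held for 73.8% of all features, and for 54 it lay within 1.5-fold. The exceptions to the first count were Cox6a2 and Atp5o. The median SE was 0.183 among members and 0.220 over all features. All 87 member probes were well above background on all 8 arrays, while features in general needed this on only 4. Members and all features are thus not matched for signal strength, and its part in these differences was not tested.

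**Figure D1:**
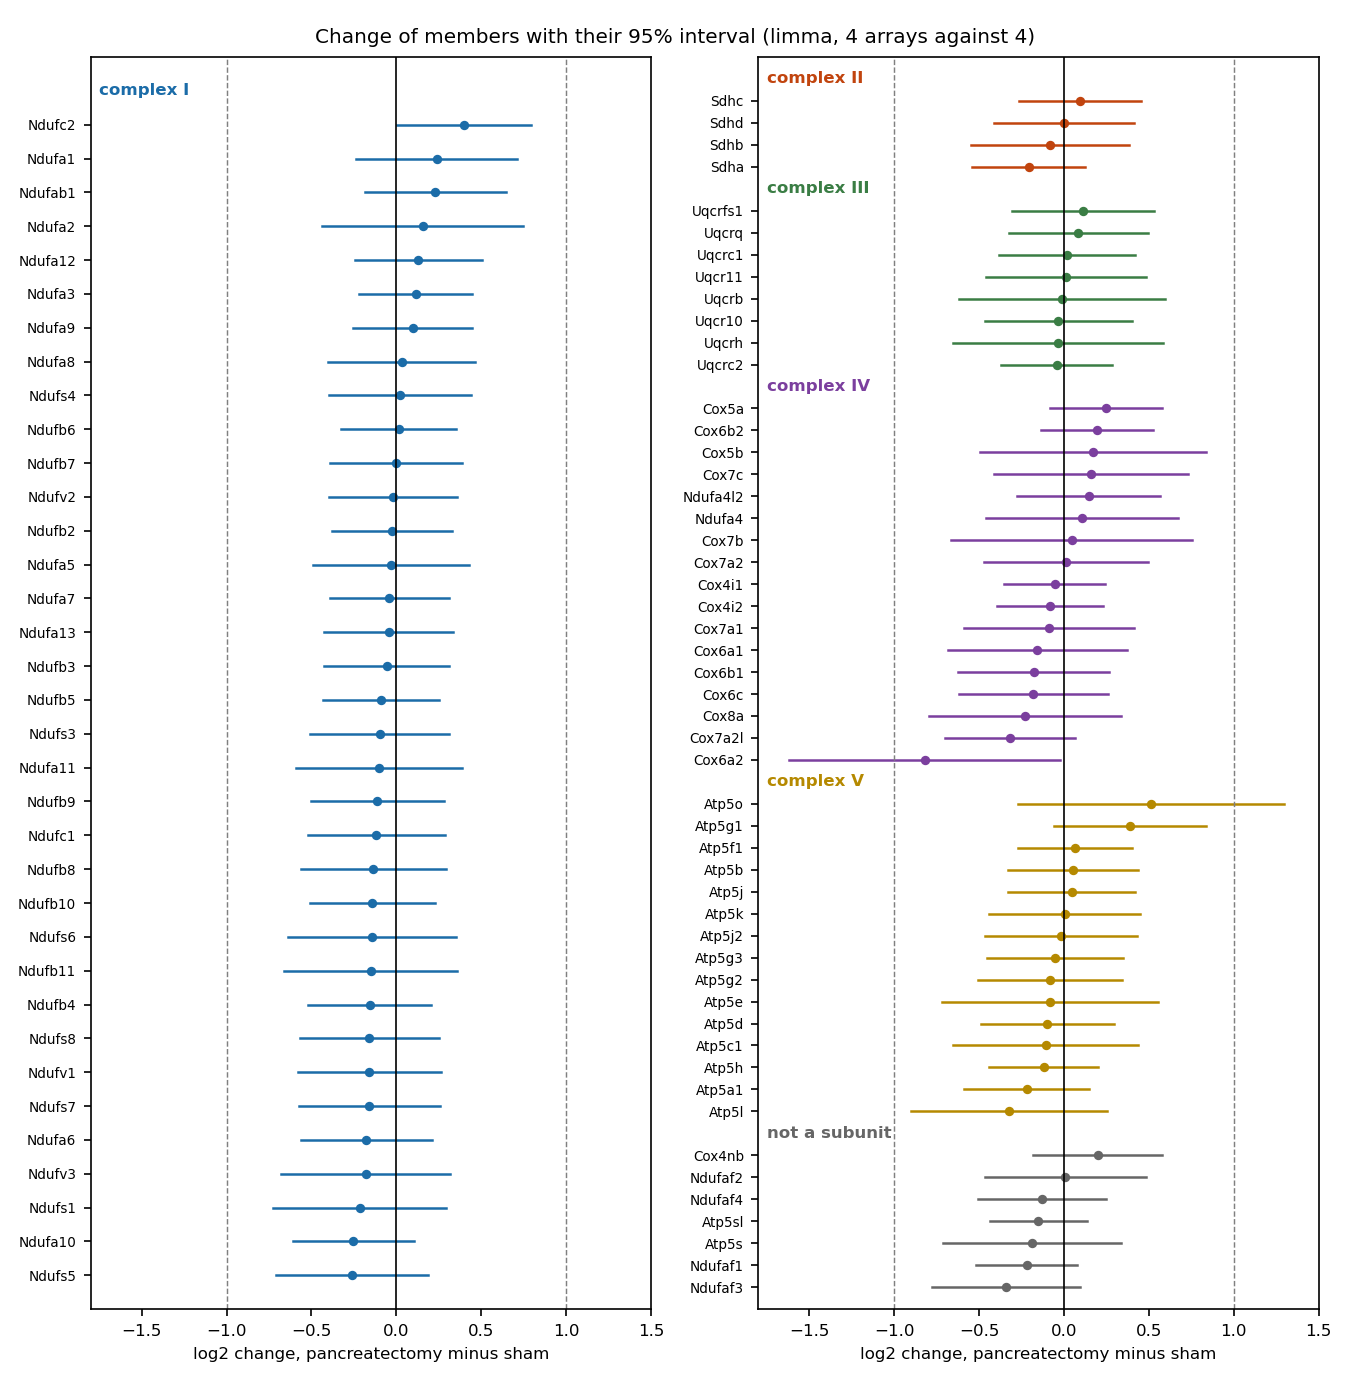
Change of the tested members reported here (points, log2 of pancreatectomy minus sham) with its 95% interval (bars, limma, 4 arrays against 4), by complex; dashed lines mark a 2-fold change either way. The intervals of Cox6a2 and Atp5o cross a dashed line, and those of the other genes drawn do not.

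**Figure D2:**
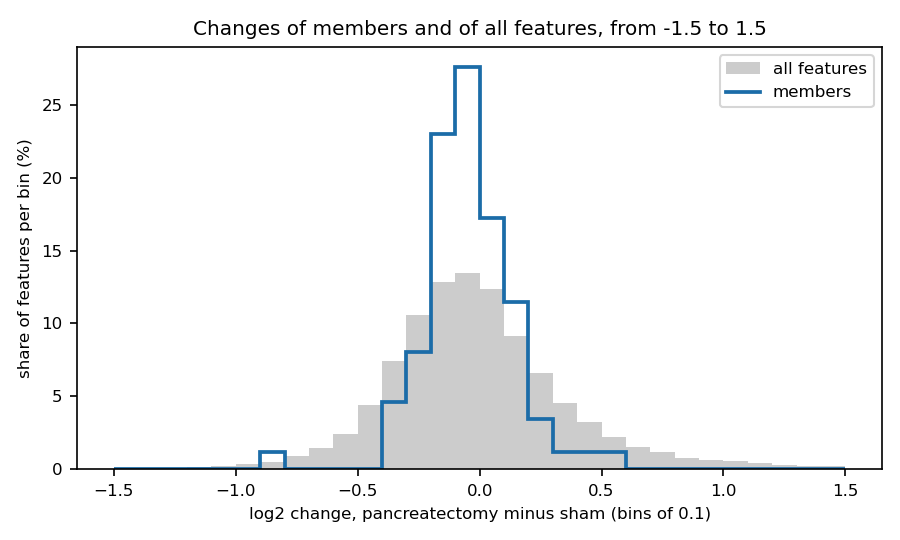
Share of features in each bin of 0.1 on the log2 scale (vertical axis, percent) by their change after pancreatectomy (horizontal axis), for the 87 members (line) and for all 30864 features tested (grey). The window from -1.5 to 1.5 holds 100% of the members and 98.6% of all features, and the members lie closer to 0, with a median absolute change of 0.114 against 0.212. Members and all features are not matched for signal strength.

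Many promoters of these genes share letters of the binding sites of NRF1, an activator of respiratory chain genes, of the ETS family, which includes GABP, and of YY1. RefSeq start-site windows of the GRCm38.p6 build, from 250 bases before to 50 after a start, were found for 74 members, with 80 windows in all. NRF1 letters (GCGCATG, either strand) were in 17.5% of the member windows and 3.91% of all 32851 windows, ETS letters (CCGGAAG) in 21.3% and 8.86%, and YY1 letters (ATGGCGG) in 16.3% and 4.05%. At least 1 of the motifs was in 46.3% of member windows and in 15.0% of all windows. Member windows and all windows were not matched for base composition or for expression of the gene, and the part of these in the shares was not tested. NRF1 and YY1 letters can share the bases ATG, and a full NRF1 palindrome matches GCGCATG once on each strand. A match describes letters only, not a bound site. Both NRF1 and ETS letters were in 6 of the member windows, and in 3 of these both motifs lay in the 250 bases before the start. These 3, shown because they hold both motifs, belong to a complex I, a complex IV and an ATP synthase gene and are given 5′ to 3′ on the gene's strand, with motif letters in capitals.
Ndufb6, chr4:40279422-40279671, strand minus: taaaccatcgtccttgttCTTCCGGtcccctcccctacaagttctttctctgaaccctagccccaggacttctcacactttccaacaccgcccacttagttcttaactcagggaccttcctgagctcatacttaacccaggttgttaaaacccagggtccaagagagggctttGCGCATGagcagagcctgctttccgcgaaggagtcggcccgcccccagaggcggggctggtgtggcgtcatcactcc
Cox6a1, chr5:115348959-115349208, strand minus: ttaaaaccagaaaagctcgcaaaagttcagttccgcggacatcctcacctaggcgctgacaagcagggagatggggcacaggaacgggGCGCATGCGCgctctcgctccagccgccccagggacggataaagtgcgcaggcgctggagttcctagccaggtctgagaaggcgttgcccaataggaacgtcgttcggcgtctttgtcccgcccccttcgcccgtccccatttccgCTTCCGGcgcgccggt
Atp5l, chr9:44920743-44920992, strand minus: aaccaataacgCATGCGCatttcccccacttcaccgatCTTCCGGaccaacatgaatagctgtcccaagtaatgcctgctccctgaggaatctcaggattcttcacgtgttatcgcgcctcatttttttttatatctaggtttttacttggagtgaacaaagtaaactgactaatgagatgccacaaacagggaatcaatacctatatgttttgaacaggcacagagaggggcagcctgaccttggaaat
The 3 genes had changes of 0.013 ± 0.15 for Ndufb6, -0.16 ± 0.23 for Cox6a1 and -0.33 ± 0.25 for Atp5l, and none passed the test. The value of Atp5l is from a probe on chromosome X in mm9, not on chromosome 9 as this promoter, and probes on chromosome 9 are given below.

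Complex I, which takes electrons from NADH, is covered by 36 genes, all tested. In 10 the change was above 0 and in 26 below, the median was -0.093, and 0 were called in either direction. The 7 genes of the catalytic core, which hold the flavin, the iron-sulphur clusters and the ubiquinone site, had a median change of -0.16, and all 7 changes were below 0, the one nearest 0 being -0.020 for Ndufv2. Sham replicate 3 was the highest sham array in 6 of the 7. Without it, 5 of the 7 changes were below 0 and the median of the core was -0.018, and without both pancreatectomy replicates 1 and 3 these were 4 of 7 and -0.013. The median of the whole complex was -0.016 without sham replicate 3 and 0.133 without both pancreatectomy replicates 1 and 3. Ndufv1, which binds NADH and the flavin, had a change of -0.16 ± 0.19, and Ndufs1, the largest iron-sulphur subunit, one of -0.22 ± 0.22.

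Of the 29 accessory genes of complex I, which surround and stabilise the core, 10 changes were above 0 and 19 below, with a median of -0.045. Ndufc2, a small subunit of the membrane arm, had the highest change of the complex. Its normalized log2 signals, listed here and below in the order of replicates 1 to 4, were 14.26, 14.39, 14.71 and 14.29 on the sham arrays and 14.65, 15.02, 14.58 and 15.01 on the pancreatectomy arrays. Pancreatectomy replicates 2 and 4 lay above every sham array, while replicates 1 and 3 lay below sham replicate 3. The change was 0.40 ± 0.17, or 1.32-fold, with a 95% interval from 0.0070 to 0.80, an unadjusted p of 0.0469 and an adjusted p of 0.468 in limma. Next in order were Ndufa1, a small membrane subunit, at 0.24 ± 0.21, and Ndufab1, the mitochondrial acyl carrier protein, at 0.23 ± 0.18. The lowest accessory genes were Ndufs5 at -0.26 ± 0.20 and Ndufa10 at -0.25 ± 0.16. Probes of a gene did not always go together: the 4 kept probes of Ndufb5 gave -0.27, -0.088, -0.10 and 0.56, the last from a probe well above background on 7 arrays, and those of Ndufb6 also differed in sign.

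Complex II, succinate dehydrogenase, is also an enzyme of the citric acid cycle, and all 4 of its subunits are nuclear. Sdha, the flavoprotein that oxidises succinate, had signals of 13.28, 13.59, 13.65 and 13.54 on the sham arrays and 13.20, 13.33, 13.20 and 13.50 on the pancreatectomy arrays. Sham replicate 1 lay within the pancreatectomy range and the groups overlapped, with a change of -0.21 ± 0.15 and an adjusted p of 0.651 in limma. Sdhb, the iron-sulphur subunit, had 14.11, 14.15, 14.78 and 14.13 on the sham arrays and 13.97, 14.36, 14.04 and 14.47 on the pancreatectomy arrays, a change of -0.082 ± 0.20. The membrane anchors Sdhc and Sdhd had changes of 0.094 ± 0.16 and -0.00064 ± 0.18, and a second probe of Sdhc differed in sign. The 95% intervals of all 4 genes lay within a 1.5-fold change.

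Complex III, which hands electrons from ubiquinol to cytochrome c, had the lowest median absolute change of the complexes with all 8 arrays, 0.034. Of its 8 genes, 4 changes were above 0 and 4 below, the median was 0.00055, and the range ran from -0.043 to 0.11. The median was 0.120 without sham replicate 3 and 0.233 without both pancreatectomy replicates 1 and 3, the highest of any complex in that setting. Uqcrfs1, the Rieske iron-sulphur protein, had signals of 13.45, 13.45, 12.85 and 13.40 on the sham arrays and 13.32, 13.42, 13.22 and 13.64 on the pancreatectomy arrays. Sham replicate 3 was the lowest array, and the change was 0.11 ± 0.18. The core proteins Uqcrc1 and Uqcrc2 had changes of 0.015 ± 0.18 and -0.043 ± 0.14. Uqcrh, the hinge protein near cytochrome c, had 14.87, 14.92, 15.98 and 14.92 on the sham arrays and 14.87, 15.44, 15.01 and 15.23 on the pancreatectomy arrays, so that sham replicate 3 stood apart upward here, with a change of -0.035 ± 0.27. The remaining small subunits were Uqcrq at 0.085 ± 0.18, Uqcr11 at 0.011 ± 0.21, Uqcrb at -0.010 ± 0.27 and Uqcr10 at -0.034 ± 0.19, and in Uqcr10, Uqcr11, Uqcrb and Uqcrh other probes differed in sign. Those of Uqcr11 and Uqcrh lie off the gene's chromosome in mm9, on 1 in place of 10 and on 2 in place of 4. A second kept probe of Uqcrq gave 0.30 ± 0.21, outside the range above, which uses the brightest probe of each gene.

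Complex IV, cytochrome c oxidase, passes electrons to oxygen, and several of its nuclear subunits exist as a widely expressed form and a form of particular tissues or conditions. Of 20 genes, counting Ndufa4, which despite its name belongs to this complex, 17 were tested, with 8 changes above 0, 9 below and a median of -0.054. The 3 genes not tested are tissue forms: Cox7b2 and Cox8c, known from testis, were well above background on 0 arrays, and Cox8b, the muscle and brown fat form, on 3 sham arrays and 0 pancreatectomy arrays.

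Cox6a2, the heart and skeletal muscle form of subunit 6a, had the lowest change of all members. Its probe lies at chr7:135349160-135349219 on the mm9 build, on the minus strand. The signals were 15.18, 14.10, 15.05 and 14.24 on the sham arrays and 13.21, 13.88, 13.61 and 14.59 on the pancreatectomy arrays. Pancreatectomy replicates 1, 2 and 3 lay below all sham arrays, but replicate 4 lay above sham replicates 2 and 4, so the groups overlapped. Mean levels were 14.64 ± 0.55 (SD, n = 4) in sham and 13.82 ± 0.58 in pancreatectomy arrays, a change of -0.82 ± 0.35, or 1.77-fold lower, with a 95% interval from -1.62 to -0.024, an unadjusted p of 0.0448 and an adjusted p of 0.464 in limma. Without pancreatectomy replicates 1 and 3 the change was -0.41. Of 6 skeletal muscle markers, Ckm, Myh4 and Mylpf were not well above background on any array and 2 were on all 8. The summed signal of the 6 ran from 7.4 to 7.7 on sham arrays and from 7.5 to 8.8 on pancreatectomy arrays (log2), far below Cox6a2. Their mean deviation was highest on sham replicate 3, at 0.54, where Cox6a2 was also high. It was -0.030 on sham replicate 1, where Cox6a2 was highest. This deviation lay between -0.39 and -0.030 on the sham arrays other than replicate 3 and between -0.23 and 0.081 on pancreatectomy arrays. The mean deviation of the beta-cell markers was lowest on pancreatectomy replicates 1 and 3, as given below. The part of muscle and beta cells in the change of Cox6a2 was not tested. Cox6a1, the widely expressed form, had 16.73, 16.65, 17.41 and 16.46 on the sham arrays and 16.41, 16.77, 16.48 and 16.96 on the pancreatectomy arrays, a change of -0.16 ± 0.23. Relative to Cox6a1 on the same array, the change of Cox6a2 was -0.66, with relative values from -0.38 to 0.62 on sham arrays and from -1.03 to -0.19 on pancreatectomy arrays, which overlap.

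In the other pairs of forms, sham and pancreatectomy arrays overlapped. Cox4i1 and Cox4i2, the latter known from lung and from low oxygen, had changes of -0.054 ± 0.13 and -0.081 ± 0.14. Cox7a1, the heart form, had -0.089 ± 0.22, and the widely expressed Cox7a2 had 0.011 ± 0.21. Cox7a2l, which helps to join complexes III and IV into supercomplexes, had signals of 15.81, 16.09, 16.34 and 15.89 on the sham arrays and 15.47, 15.90, 15.76 and 15.73 on the pancreatectomy arrays. Only pancreatectomy replicate 2 reached into the sham range, and the change was -0.32 ± 0.17 with an adjusted p of 0.554 in limma. Cox6b1 and Cox6b2, the second known from testis, had changes of -0.18 ± 0.20 and 0.19 ± 0.15. Ndufa4 had 0.11 ± 0.25, and Ndufa4l2, known as a gene induced by low oxygen, had 0.15 ± 0.19. The widely expressed Cox5a, which binds a thyroid hormone metabolite, had the highest change of the complex at 0.25 ± 0.15, Cox5b 0.17 ± 0.29, Cox6c -0.18 ± 0.19, Cox7b 0.044 ± 0.31, and Cox8a -0.23 ± 0.25.

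**Figure D3:**
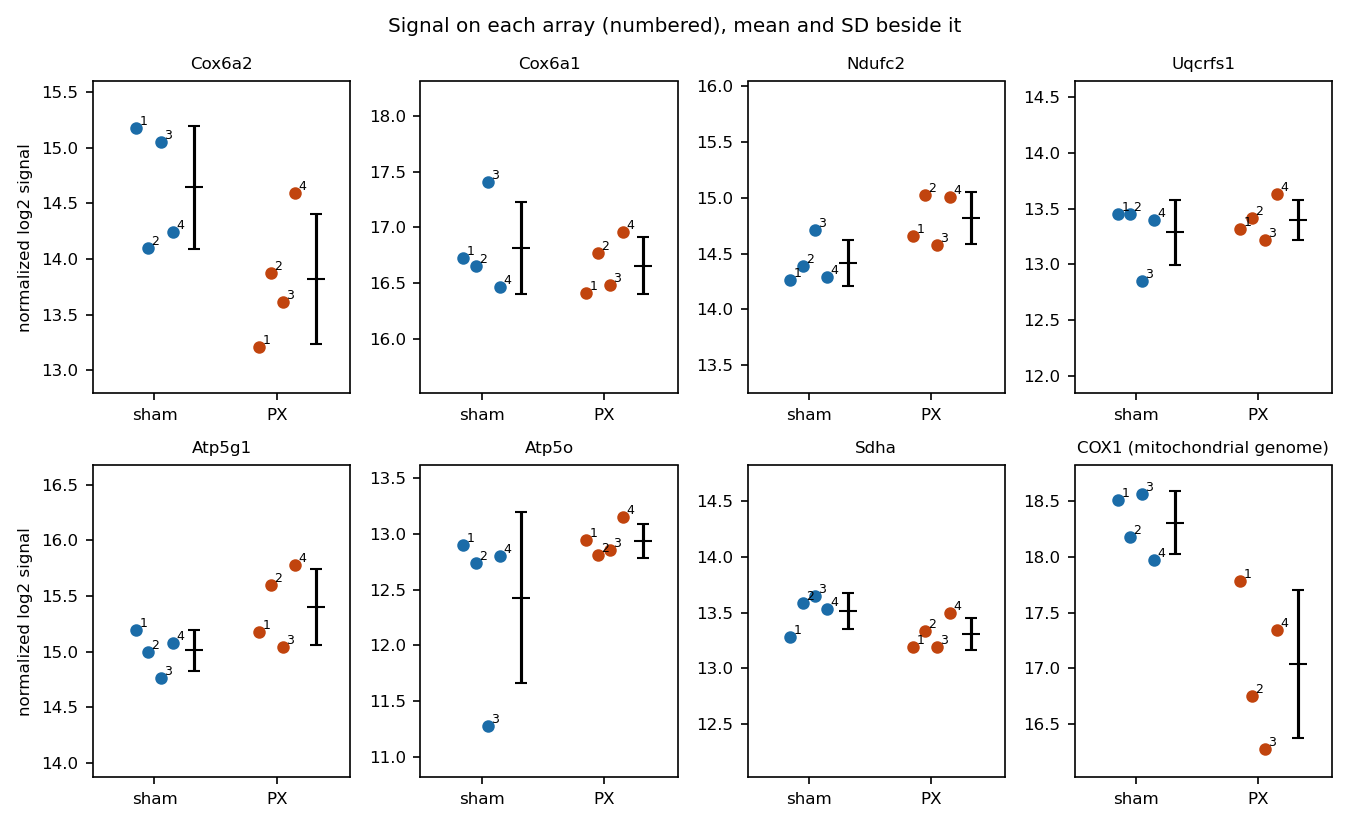
Normalized log2 signal (vertical axis, 2.8 units in each panel) of 7 members and of the mitochondrial gene COX1 on each sham (blue) and pancreatectomy (PX, orange) array, numbered by replicate, with the mean and SD of the 4 arrays beside the points. Sham and pancreatectomy arrays overlap in all 7 members and do not overlap in COX1, whose adjusted p was 0.191.

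ATP synthase is covered by 15 genes, with 6 changes above 0, 9 below and a median of -0.054. The catalytic head is formed by Atp5a1, at -0.22 ± 0.16, and Atp5b, which holds the catalytic sites, at 0.053 ± 0.17, around the stalk subunits Atp5c1 at -0.11 ± 0.24, Atp5d at -0.098 ± 0.17 and Atp5e at -0.085 ± 0.28. The c ring, which turns as protons pass, is built from a single mature protein that Atp5g1, Atp5g2 and Atp5g3 all encode. Atp5g1 had signals of 15.20, 15.00, 14.77 and 15.07 on the sham arrays and 15.18, 15.59, 15.05 and 15.77 on the pancreatectomy arrays. Pancreatectomy replicates 2 and 4 lay above all sham arrays and replicates 1 and 3 within their range. The change was 0.39 ± 0.20, or 1.31-fold, with an adjusted p of 0.539 in limma. A second kept probe of Atp5g1, well above background on all 8 arrays, gave a smaller change of 0.13 ± 0.20. Its signals were 12.05, 12.05, 11.38 and 11.97 on the sham arrays and 11.85, 12.30, 11.83 and 12.00 on the pancreatectomy arrays. Atp5g2 and Atp5g3 had changes of -0.083 ± 0.19 and -0.054 ± 0.18. Relative to Atp5g2 on the same array, the change of Atp5g1 was 0.47, with relative values of 0.23, 0.23, -0.68 and 0.22 on the sham arrays and 0.39, 0.60, 0.26 and 0.63 on the pancreatectomy arrays. These did not overlap, although sham replicates 1, 2 and 4 lay just below pancreatectomy replicate 3. Relative to Atp5g3, the values of Atp5g1 overlapped. These relative values use only the brightest probe of each gene, and no test was made of them. On its second probe, Atp5g1 was higher on sham replicate 2 (12.05) than on pancreatectomy replicate 4 (12.00). Atp5g2 was lower on the former (15.75) than on the latter (16.13), so with that probe the relative values overlapped. Among the pairs of forms compared, Atp5g1 and Atp5g2 were the only one without overlap, and 8.28% of all single features did not overlap.

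Atp5o, the peripheral stalk subunit that confers sensitivity to oligomycin, had the highest change of all members, and it rests on 1 array. Its signals were 12.90, 12.74, 11.28 and 12.80 on the sham arrays and 12.95, 12.81, 12.85 and 13.15 on the pancreatectomy arrays, so that sham replicate 3 stood apart and the other 7 arrays lay close together. The change was 0.51 ± 0.34 with an adjusted p of 0.636 in limma, and 0.13 without sham replicate 3. The other stalk subunits were Atp5h at -0.12 ± 0.14, Atp5j at 0.044 ± 0.17 and Atp5f1, now Atp5pb, at 0.066 ± 0.15. Atp5l, a membrane subunit that helps ATP synthase to form pairs, had the lowest change, -0.33 ± 0.25, but the probe that stood for it lies on chromosome X in mm9 while the gene lies on chromosome 9, and the 5 probes on chromosome 9 gave -0.31 to -0.039. The remaining membrane subunits Atp5j2 and Atp5k had changes of -0.019 ± 0.20 and 0.0045 ± 0.20. The probe that stood for Atp5j2 also lies off the gene's chromosome, on 9 in place of 5. In both cases signal from near-identical gene copies cannot be told apart, and the gene's value is uncertain. Kept probes of Atp5c1, Atp5h, Atp5j2 and Atp5k differed in sign. In Atp5k the probe below 0 lies off the gene's chromosome, on sequence not placed on a chromosome in mm9.

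The 7 genes outside the complexes comprise the complex I assembly factors Ndufaf1 to Ndufaf4 and the other proteins Atp5s, Atp5sl and Cox4nb, now named Dmac2l, Dmac2 and Emc8. Ndufaf3 had the lowest change, -0.34 ± 0.19 with an adjusted p of 0.575 in limma. Atp5sl was the 1 gene of the 87 whose groups did not overlap, with 11.71, 11.75, 11.66 and 11.71 on the sham arrays and 11.40, 11.62, 11.56 and 11.64 on the pancreatectomy arrays. Its change was -0.15 ± 0.13 with an adjusted p of 0.701.

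The members varied together from array to array more than they differed between the groups. Their median deviation from the sham mean, in the same replicate order, was -0.023, -0.072, 0.303 and -0.131 for sham, and -0.267, 0.065, -0.240 and 0.182 for pancreatectomy. Over all features the same median was between -0.053 and 0.043 on sham arrays, and -0.149, 0.059, -0.121 and 0.0068 on pancreatectomy arrays. Pancreatectomy replicates 1 and 3 were the lowest of the 4 pancreatectomy arrays in 76 of 87 members, 87.4%, against 42.2% of all features. This held for 33 of 36 genes of complex I, 4 of 4 of complex II, 8 of 8 of complex III, 12 of 17 of complex IV and 14 of 15 of complex V. The median difference of pancreatectomy replicates 2 and 4 from replicates 1 and 3 was 0.366 among members and 0.167 over all features. Sham replicate 3 was the highest sham array in 58 members, 66.7%, against 40.3% of all features.

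Some marker lists moved with the same arrays and others did not. All 8 fibroblast markers were measured, and their mean deviation from the sham mean was 2.98 and 2.37 on pancreatectomy replicates 1 and 3 and 0.034 and 0.012 on replicates 2 and 4. Their summed signal ran from 12.8 to 13.7 on sham arrays and from 13.2 to 16.9 on pancreatectomy arrays (log2). All 8 macrophage markers were measured, with 2.00 and 1.63 on the former pair against -0.49 and 0.025 on the latter, and summed signals of 13.6 to 13.8 in sham and 13.15 to 14.4 in pancreatectomy arrays. The 6 duct markers, of which 3 were well above background on all 8 arrays, had 1.31 and 0.86 on the former pair and -0.35 and -0.36 on the latter. On sham arrays the duct markers lay between -0.44 and 0.57. The 12 beta-cell markers had -0.68 and -0.48 on the former pair and -0.18 and -0.22 on the latter, with summed signals of 20.1 to 21.5 in sham and 20.1 to 21.0 in pancreatectomy arrays. On sham replicate 3 the beta-cell markers were at 0.36 and the 12 acinar markers at -1.82, next to its low 75th percentile given above. On the other sham arrays the beta-cell markers lay between -0.175 and -0.063, so all pancreatectomy arrays were below all sham arrays, replicate 2 only just, at -0.177. The acinar markers lay between 0.16 and 1.31 on those sham arrays. The 6 alpha-cell markers, of which Ttr is also a hepatocyte marker, did not split by this pair: they were at -1.35, -0.91, -0.69 and -0.94 on pancreatectomy replicates 1 to 4 and between -0.17 and 0.31 on sham arrays. Of these 6 markers 1 was called lower at an adjusted p of 0.05 in limma, which called 0.629% of all features in either direction. The 3 delta-cell markers were at -0.48, -0.39, -0.034 and -0.19, and the acinar markers at -0.62, 0.19, 1.43 and 0.21, on the pancreatectomy arrays in the same order. The part of these cells and of signal strength in the members' values was not tested. Without pancreatectomy replicates 1 and 3, the median change was 0.128 over all members and 0.040 over all features, and 0 members were called in either direction. Leaving out pancreatectomy replicate 1 alone put the members' median at 0.025 and leaving out replicate 3 alone at 0.0074. Without sham replicate 3 it was -0.012, with 0.066 for complex II and 0.064 for complex V, so the sign and size of these medians rest on single arrays.

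**Figure D4:**
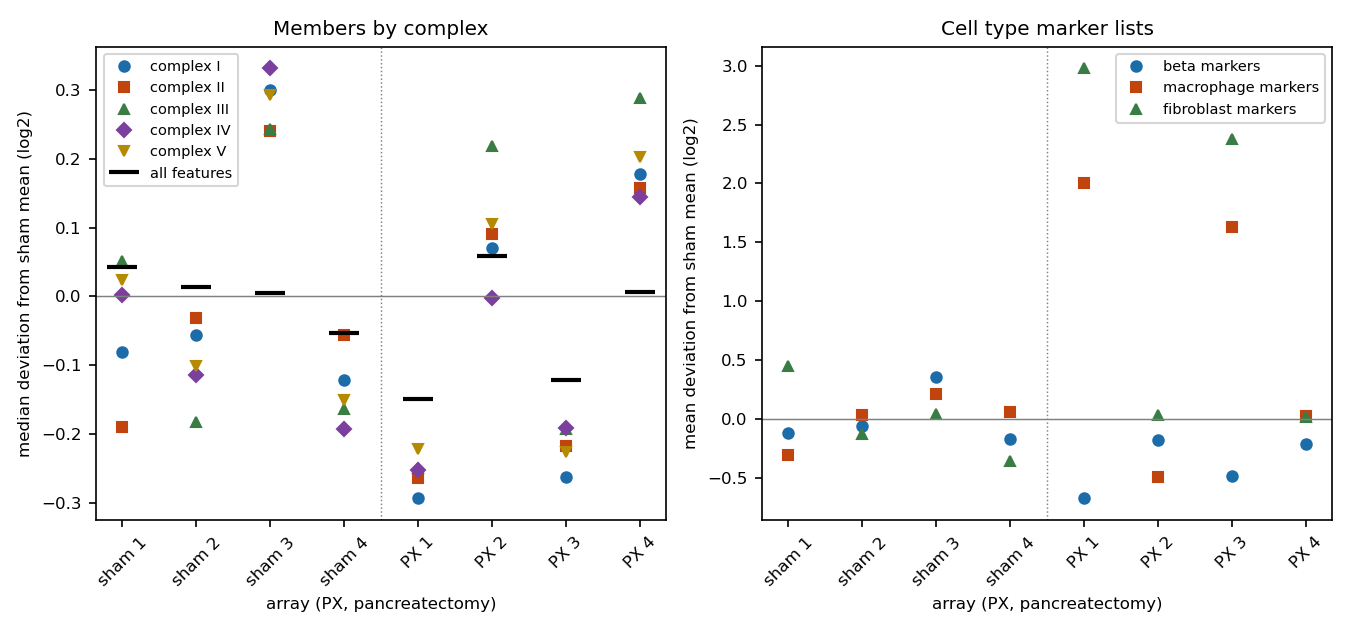
Left, median deviation of each complex from its sham mean on every array (log2, coloured marks), with the median over all features as a black bar; right, mean deviation of the beta-cell, macrophage and fibroblast marker lists on the same arrays. Complexes I to V are all below 0 on pancreatectomy (PX) replicates 1 and 3, where the fibroblast list is at 2.98 and 2.37, and all above 0 on sham replicate 3 and pancreatectomy replicate 4.

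The mitochondrial genome encodes 13 further subunits of the same complexes, and all were tested. At an adjusted p of 0.05 in limma 0 were higher and 0 lower, 11 changes were below 0 and 2 above, and the median was -0.187. Groups did not overlap in 1 of the 13, or 7.69%, against 8.28% of all features. An unadjusted p under 0.05 in limma was found for 1 of the 13, against 10.5% of all features, so both shares were no higher than over all features. COX1, the catalytic subunit of complex IV, had the lowest change of the 13 and is the gene in both counts. Its signals were 18.51, 18.18, 18.57 and 17.97 on the sham arrays and 17.78, 16.75, 16.27 and 17.34 on the pancreatectomy arrays, and all pancreatectomy arrays lay below all sham arrays. The change was -1.27 ± 0.32, with an unadjusted p of 0.0033 and an adjusted p of 0.191. Its array order differed from that of the nuclear members, with pancreatectomy replicate 1 the highest of its group, and without pancreatectomy replicates 1 and 3 the change was -1.26. Without the 3 arrays with hepatocyte transcripts it was -1.91. COX2 and COX3, the other mitochondrial subunits of complex IV, had -0.21 ± 0.31 and -0.12 ± 0.19. The next lowest were ND2 at -0.33 ± 0.26 and ND1 at -0.26 ± 0.17, both of complex I, and the highest were ND6 at 0.33 ± 0.54 and ND5 at 0.16 ± 0.17.

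The genes that feed, build and regulate the chain were taken from 7 further lists, chosen with earlier results of these data known, and none of their genes passed an adjusted p of 0.05 in limma. Over all 8 lists, the mitochondrial genes included, 224 genes were tested, 0 were called and 6, or 2.68%, had an unadjusted p under 0.05, against 10.5% of all features. With array weights, an alternative fit that calls 2.49% of all features, limma called 3 of them, all lower. Among 11 other chain components the median change was -0.025, with cytochrome c itself (Cycs) highest at 0.40 ± 0.22. Among 40 assembly factors the median was -0.102, from Cox17, a copper carrier of complex IV, at -0.57 ± 0.50, to Foxred1, a complex I factor, at 0.12 ± 0.17. The 78 genes of the mitochondrial ribosome had a median of -0.062, from -0.41 ± 0.16 for Mrpl36 to 0.35 ± 0.21 for Mrps14. The 20 carriers and shuttles had a median of -0.048, from Slc25a11, the oxoglutarate carrier, at -0.41 ± 0.25 to Slc25a10, the dicarboxylate carrier, at 0.51 ± 0.38. The 22 regulators of mitochondrial biogenesis and mitochondrial DNA had a median of -0.112, from Esrrg at -0.38 ± 0.28 to Myc at 0.71 ± 0.45.

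Of the 6 genes with an unadjusted p under 0.05, apart from COX1 and Mrpl36, 1 is of the ubiquinone synthesis list and 3 are of the list of the citric acid cycle and pyruvate entry. With 12 and 28 genes tested in these lists, the shares are near the 10.5% of all features. Groups that did not overlap, in 1 of 12 and 2 of 28 genes, were also near the 8.28% of all features. Coq8a (Adck3), a kinase-like protein of ubiquinone synthesis, had signals of 8.51, 9.08, 8.82 and 9.01 on the sham arrays and 8.11, 7.74, 8.08 and 7.94 on the pancreatectomy arrays, without overlap. Its change was -0.89 ± 0.17 with an adjusted p of 0.0763 in limma. With the mean of its probes the change was -0.54, and with array weights it was called lower, at -0.95 with an adjusted p of 0.0165. The other 11 genes of that list ran from -0.42 ± 0.20 for Coq4 to 0.43 ± 0.22 for Pdss1, and the list's median was -0.109. Among 28 genes of the citric acid cycle and pyruvate entry the median was -0.132. Ogdhl, a form of the oxoglutarate dehydrogenase subunit, had 8.25, 8.47, 9.05 and 8.41 on the sham arrays and 7.75, 7.90, 7.82 and 7.96 on the pancreatectomy arrays, with no overlap, a change of -0.69 ± 0.19 and an adjusted p of 0.242. Pcx, pyruvate carboxylase, which refills the cycle and is abundant in beta cells, had 12.68, 12.98, 12.74 and 12.92 on the sham arrays and 12.36, 12.20, 12.31 and 12.48 on the pancreatectomy arrays, again with no overlap, a change of -0.49 ± 0.14 and an adjusted p of 0.255. With array weights both were called lower, at -0.59 with an adjusted p of 0.0374 for Ogdhl and -0.56 with an adjusted p of 0.0379 for Pcx. Fumarase, Fh1, had the highest change of that list, 0.42 ± 0.16, with an adjusted p of 0.414.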

How the data were processed

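The deposited scanner files give spot intensity on a linear scale for one-colour Cy3 arrays (version 10.7.3.1 of Feature Extraction in the headers, 9.1 in the submitters' processing notes). The intensity used is the scanner software's processed signal, with background removed, per the file headers. A second deposited table by the authors holds group averages only, as intensity and as log2 values shifted by the 75th percentile in GeneSpring GX 12.5. It served for gene names and as an alternative source of values, and its differences had a slope of 0.999 against those of the arrays across 30864 features.

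Outlier spots (113 to 228 per array) were left out. Log2 signals were shifted to equal 75th percentiles, spots of a probe averaged, and probes kept if well above background on at least 4 of 8 arrays, with at least 3 values in each group. The brightest kept probe stands for a gene. Symbols were updated by Entrez ID with a GRCm38 table, used for names only, and members are named as deposited. The 90 genes have 134 probes, 130 of them kept. Probes differ in sign in 11 of the 29 genes with several, and 8 probes lie off their gene's chromosome. Probe positions are on mm9 in the headers, and no exon or UTR annotation was used here. Members had no missing values.

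The test was lmFit and eBayes of limma 3.58.1 (R 4.3.3) with Benjamini-Hochberg adjustment over 30864 features and a threshold of 0.05, checked on simulated data. For simulated log2 changes of 0.5, 1, 2 and 3, with 50 features each, it recovered 0%, 30%, 66% and 96%. The number of arrays limits the precision. Alternatives were normexp background correction (offset 50, on the median spot signal, chosen after seeing the data since the files give no mean signal), other scalings, filters and probe rules, the slide row as block or split, array weights, an intensity trend and arrays left out. The members and lists were chosen with earlier results of these data known. The rule for named genes takes the Sdh genes, the 3 highest and 3 lowest changes of each complex, isoform groups and genes whose probes differ in sign. Of each list it takes the genes with an unadjusted p under 0.05 in limma and the 2 highest and 2 lowest changes. Ndufs1, Ndufv1, Ndufv2, Atp5b, Atp5d, Atp5e, Atp5j, Atp5sl, Ndufaf3, COX2, COX3 and ND1 were added after their values were seen. The values of 1 member are not reported here; it is counted in the totals and medians and left out of the plots of single genes.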

Additional observations from a re-analysis of the deposited data

Results flagged for a closer look

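In groups of 4 arrays, an array was singled out where its gap to the nearest other array, divided by the group's range, exceeded Dixon's 95% critical value. This happened in 24 of 196 groups checked, where chance gives about 1 in 20, and 18 of the 24 concern sham replicate 3, 12 as the highest and 6 as the lowest array. The groups share the same 8 arrays, and many are of genes named for their large changes. The share of 1 in 20 is therefore no test of this count. Sham replicate 3 was the highest sham array, in normalized log2 signal, for Atp5c1 (15.39), Atp5d (13.39), Cox6b1 (12.30), Cox8a (17.23), Sdhb (14.78), Uqcrh (15.98), Mrpl2 (14.30), ND6 (10.77), Slc25a11 (13.78) and Uqcc3 (13.14). It was also highest in the median deviation of complex I (0.300) and of the 7 genes that are not subunits (0.303). It was the lowest sham array for Atp5o (11.28), Uqcrfs1 (12.85), Cox17 (5.12), Etfb (13.54), Mrps14 (11.59) and Slc25a22 (8.76).

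The remaining groups were Cox4i2, where sham replicate 4 was lowest at 8.65 and pancreatectomy replicate 4 highest at 8.92, and Atp5d (13.06), Ndufaf3 (10.64), Uqcrc1 (12.36) and Dld (11.71), in which pancreatectomy replicate 4 was the highest of its group.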

How the results depend on the processing

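In limma under every alternative run, 0 members were called in either direction (2 had an unadjusted p under 0.05 in the main setting), and 0 list genes except with array weights, where 3 were lower. Of 2182 values of the 91 named genes, 2150 kept their side of the threshold within 1 SD between arrays, 29 moved further, 3 passed the threshold, and 183 had the other sign. The counts over all features (168 higher, 26 lower) were 54 and 6 with normexp, 18 and 0 with no scaling, 68 and 4 with no filter, 111 and 11 with slide row as block, 0 and 0 within slide row 1, 0 and 0 within slide row 2, 0 and 0 without the 3 arrays with liver transcripts, 14 and 1 without both pancreatectomy replicates 1 and 3, and 407 and 362 with array weights. Median scaling gave 48 lower, and the filter on all 8 arrays 93 higher. Leaving out 1 array gave 56 to 165 higher and 3 to 32 lower. Without both pancreatectomy replicates 1 and 3, median changes were 0.133 (complex I), 0.159 (complex II), 0.233 (complex III), 0.050 (complex IV), 0.186 (complex V) and 0.040 (all features). Median scaling put the median of all features at -0.160 and that of the members at -0.177. The causes were not tested. No paired analysis was possible because the labels give the arrays no number shared between the groups; the slide row, which holds both groups, was the block used. Probes near background (Cox7b2, Cox8b, Cox8c) give no change here.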
